A study of Mus musculus with 9 samples.

Results

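Glycolysis, lactate and glycogen enzymes were followed in mouse gastrocnemius, the large calf muscle, by RNA sequencing. A set of 39 genes was named by symbol and found in the deposited table of 55416 gene identifiers, and 38 of them held enough reads to be tested. The study has 9 libraries in 3 groups of 3. AET+MET libraries came from mice trained on a motorized treadmill that also drank metformin, AET libraries from mice trained in the same way without the drug, and SED libraries from sedentary mice. Per the labels, training ran for 60 minutes a day on 5 days a week for 8 weeks in all. Metformin, which lowers blood glucose, was dissolved in the drinking water at 2 mg/mL. The left muscle was taken and snap frozen. Strain, sex, age, feeding state and the time from the last run to collection are not stated in those labels. No group with metformin and no training was analysed here, so the drug alone and the drug on top of training cannot be told apart. The 3 comparisons share libraries: both trained groups were set against the same SED libraries, and the AET libraries serve in 2 of the comparisons.

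Glycolysis splits glucose into pyruvate. Its first committed step, phosphofructokinase, is switched on by a sugar bisphosphate that the PFKFB enzymes make and break down. Pyruvate is turned into lactate by lactate dehydrogenase, and lactate crosses the cell membrane through monocarboxylate transporters, of which MCT4 (Slc16a3) is known for export from fast fibers and MCT1 (Slc16a1) for uptake in oxidative fibers. Fast muscle also stores glucose as glycogen, which glycogen synthase builds and which glycogen phosphorylase, once phosphorylated by phosphorylase kinase, breaks down. The PPP1R3 proteins bring protein phosphatase to the glycogen particle, where it favours storage.

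Library totals ran from 15434424 to 25355877 expected counts, and the shallowest was AET+MET replicate 1. Levels below are CPM, read counts scaled to a common library size with TMM factors, with SD over n = 3 libraries, and fold changes are on the log2 scale with their SE. Calls rest on edgeR's quasi-likelihood test over 13944 genes, at a Benjamini-Hochberg adjusted p below 0.05. The libraries are numbered, with no word on whether each is a separate mouse, so these p-values measure the spread between libraries, which may be technical. Fast muscle was the tissue sampled as far as its defining markers show: Myh4, the fast IIb myosin, had 65663 to 88558 CPM and Ckm, muscle creatine kinase, 13245 to 15542 CPM over the 9 libraries. Exons of 13 of the 39 genes overlap those of another gene, and the strand setting of the counting is not given, so reads of such neighbours may be mixed. Hk1, Pfkp and Ugp2 are among them.

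The glycolytic and glycogen genes that moved were mostly lower in AET than in SED muscle. Of the 38 tested, 9 fell in AET against SED, namely Fbp2, Pfkfb4, Pgk1, Slc16a3, Ugp2, Pygm, Phka1, Ppp1r3c and Ppp1r3d, where 6.45% of all tested genes fell. Another 2, Hk1 and Pfkp, rose, where 5.82% of all tested genes rose. In AET+MET against AET, 3 genes rose (Pfkfb4, Slc16a3 and Ugp2), where 1.66% of all tested genes rose, and 2 fell (Hk1 and Eno1), where 1.77% fell. In AET+MET against SED, Eno1 alone was called, where 4.59% of all tested genes were, and it fell, where 2.42% fell. None rose there, where 2.17% of all tested genes did. In that comparison DESeq2 called 0 of the 38 higher and 4 lower, where it called 346 and 551 of 13944 genes. At an unadjusted p under 0.05 in edgeR, 1 estimate was above 0 and 8 were below there. Those counts were 5 and 14 in AET against SED, and 9 and 4 in AET+MET against AET. The share of all genes at this unadjusted level was not computed.

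Most of the 38 had small estimates. The median log2 fold change was -0.10 in AET+MET against SED, -0.11 in AET against SED and 0.09 in AET+MET against AET, beside 0.00, 0.01 and 0.00 over all tested genes. Estimates lay above 0 for 10, 12 and 24 of the 38 in those comparisons, beside 50.5%, 51.4% and 50.1% of all tested genes. All AET libraries lay below all SED libraries for 19 of the 38, where this held for 16.3% of all tested genes, and above them for 4, against 16.4% of all genes. All AET+MET libraries lay above all AET libraries for 14, against 14.7% of all genes, and below them for 6, against 13.2%. For AET+MET and SED the counts were 1 above and 9 below, each against 13.4% of all genes. The genes that fell in AET against SED were 23.7% of the 38.

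**Figure D1:**
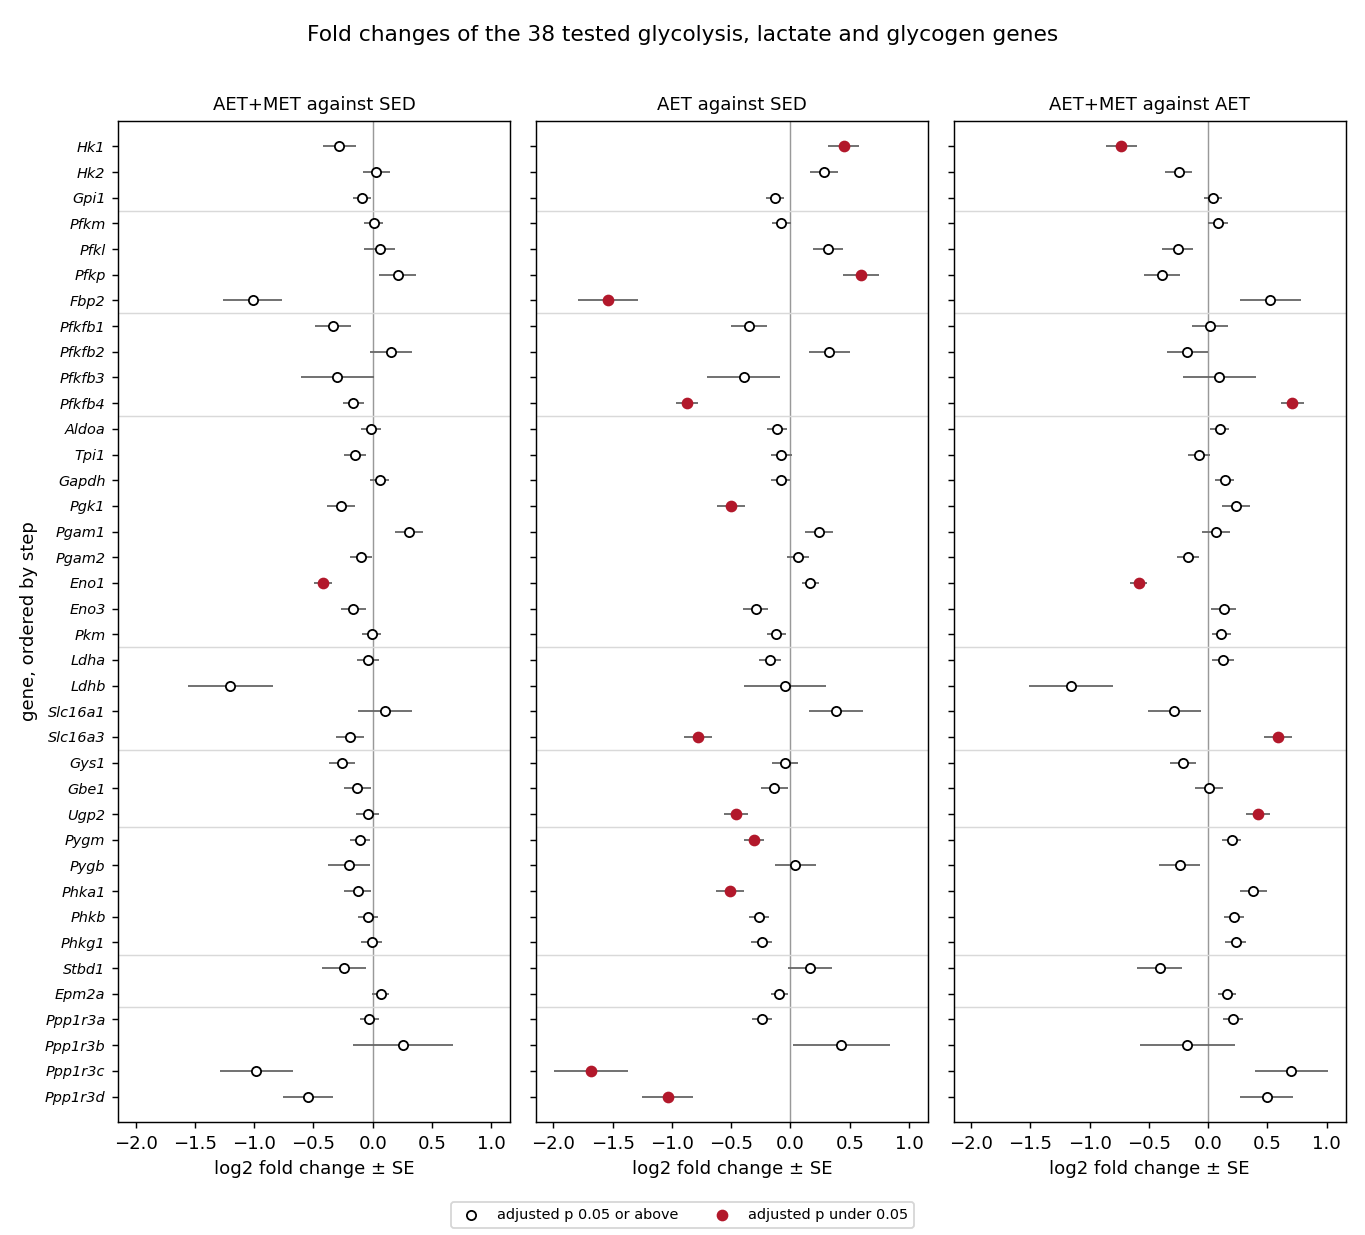
Log2 fold change with its SE for each of the 38 tested genes, ordered by step from the top, in AET+MET against SED (left), AET against SED (middle) and AET+MET against AET (right). Filled points passed the adjusted p threshold: 1 on the left, 11 in the middle and 5 on the right, and Fbp2 and Ppp1r3c lie farthest below 0 in the middle panel.

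The promoters of 5 genes that fell in AET muscle are shown: Ppp1r3c and Fbp2 had the largest falls, and Pfkfb4, Slc16a3 and Ugp2 also rose in AET+MET against AET. Each run is the 250 bases before the transcription start farthest upstream in RefSeq, on build GRCm38.p6, read 5′ to 3′ along the gene. Capitals mark matches on either strand to ACGTG or GCGTG, the core of sites of hypoxia-inducible factor, to CACGTG, the E-box that holds ACGTG on both strands, and to TGTTCT, part of a glucocorticoid receptor site.
Pfkfb4, chr9:108991652-108991901, plus strand: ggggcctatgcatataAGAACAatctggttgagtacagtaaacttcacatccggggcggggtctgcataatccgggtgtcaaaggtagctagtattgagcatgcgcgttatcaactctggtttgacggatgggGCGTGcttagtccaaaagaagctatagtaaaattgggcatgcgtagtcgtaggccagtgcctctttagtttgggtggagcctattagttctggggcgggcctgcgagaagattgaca
Slc16a3, chr11:120948817-120949066, plus strand: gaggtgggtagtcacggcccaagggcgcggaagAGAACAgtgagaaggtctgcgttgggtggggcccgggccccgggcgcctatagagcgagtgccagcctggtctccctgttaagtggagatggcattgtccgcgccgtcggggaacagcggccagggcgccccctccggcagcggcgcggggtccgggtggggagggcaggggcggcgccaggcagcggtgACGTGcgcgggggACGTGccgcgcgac
Ugp2, chr11:21371268-21371517, minus strand: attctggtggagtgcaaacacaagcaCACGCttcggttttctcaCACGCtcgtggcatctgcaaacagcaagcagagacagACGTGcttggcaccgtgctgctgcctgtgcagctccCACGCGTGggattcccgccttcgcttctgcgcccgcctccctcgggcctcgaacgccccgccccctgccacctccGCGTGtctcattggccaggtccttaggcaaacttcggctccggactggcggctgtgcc
Fbp2, chr13:62858401-62858650, minus strand: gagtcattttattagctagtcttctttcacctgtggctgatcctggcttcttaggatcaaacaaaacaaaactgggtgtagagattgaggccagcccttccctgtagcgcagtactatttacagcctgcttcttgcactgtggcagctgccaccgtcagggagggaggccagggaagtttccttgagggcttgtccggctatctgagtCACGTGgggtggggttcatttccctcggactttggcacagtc
Ppp1r3c, chr19:36736605-36736854, minus strand: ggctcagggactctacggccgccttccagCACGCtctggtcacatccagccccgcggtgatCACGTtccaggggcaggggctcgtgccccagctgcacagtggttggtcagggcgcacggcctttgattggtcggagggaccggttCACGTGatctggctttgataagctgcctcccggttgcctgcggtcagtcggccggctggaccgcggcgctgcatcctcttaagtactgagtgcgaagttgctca
Ugp2 held 5 matches to GCGTG and 1 to ACGTG, and Slc16a3 held 2 to ACGTG and 1 to TGTTCT. Fbp2 held 1 CACGTG, which counts as 2 matches to ACGTG, and Ppp1r3c held 1 CACGTG, 3 matches to ACGTG with those inside it, and 1 to GCGTG. Pfkfb4 held 1 GCGTG and 1 TGTTCT. RefSeq promoters were matched for 38 of the 39 genes, all but Ppp1r3b, the untested Aldoc included. ACGTG was found in 15 of these 38 (39.5%), beside 16.6% of 32851 promoters of the same length. The 38 use only the start farthest upstream of each gene, while the 32851 count every listed start, so a gene can enter with several. GCGTG was found in 20 (52.6%), beside 28.2% of all promoters, CACGTG in 6 (15.8%), beside 6.02%, and TGTTCT in 7 (18.4%), beside 16.1%. Among the 9 genes that fell in AET against SED, 7 held ACGTG, 6 GCGTG, 3 CACGTG and 2 TGTTCT. Base composition differed as well: median GC content was 62.8% in those 9, 58.8% in the 38 matched and 52.4% over all promoters. A match describes these letters only, and binding was not measured.

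At the first steps, Hk1, the hexokinase found in most cell types, was higher in AET than in both other groups, while Hk2, the main muscle hexokinase, and Gpi1, which interconverts the hexose phosphates, passed no test. Hk1 had 7.71, 5.60 and 5.61 CPM in the AET+MET libraries, 10.9, 9.64 and 10.7 CPM in the AET libraries and 7.37, 7.27 and 8.21 CPM in the SED libraries. Its AET libraries lay above all others, while AET+MET and SED overlapped. Hk1 (GRCm38 chr10:62268855-62379908, minus strand) rose in AET against SED by 0.45 ± 0.13 (edgeR adjusted p = 0.0414) on the log2 scale, and fell in AET+MET against AET, at -0.73 ± 0.13 (edgeR adjusted p = 0.0186). Its estimate in AET+MET against SED was -0.28 ± 0.14 (edgeR adjusted p = 0.268). The AET against SED call was lost without any 1 of the 6 libraries compared, with edgeR adjusted p up to 0.128, and the AET+MET against AET call without AET+MET replicate 2 or 3 or AET replicate 1 or 3, with edgeR adjusted p up to 0.0969. The antisense gene Hk1os, which overlaps its exons, had 0 to 2 counts in a library.

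Per exon length Hk1 was a minor transcript, with 0.739, 1.22 and 0.893 CPM per kb in AET+MET, AET and SED, where Hk2 had 60.9, 72.4 and 59.6 CPM per kb in AET+MET, AET and SED. Hk2 ran 336 to 399.9 CPM in AET+MET, 388 to 492 CPM in AET and 319.9 to 414 CPM in SED, with estimates of 0.03, 0.28 ± 0.12 (edgeR adjusted p = 0.136) and -0.25 ± 0.12 (edgeR adjusted p = 0.241) in AET+MET against SED, AET against SED and AET+MET against AET. Hk1 made up 1.70% ± 0.175 of the summed Hk1 and Hk2 CPM in AET+MET, 2.37% ± 0.314 in AET and 2.11% ± 0.148 in SED. No test of a share could pass, because an exact 2-sided permutation test of 3 against 3 libraries cannot go below p = 0.1. For the Hk1 share, AET+MET against AET and AET+MET against SED each gave the exact p = 0.1, adjusted p = 0.171 over 12 such tests. All AET+MET libraries lay below all AET and all SED libraries in this share.

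Gpi1 had 601, 582 and 617 CPM in the AET+MET libraries, 585, 553 and 612 CPM in the AET libraries and 635, 629 and 649 CPM in the SED libraries. Both trained groups lay wholly below SED, by a little: the estimates were -0.09 ± 0.08 (edgeR adjusted p = 0.557) in AET+MET against SED and -0.13 ± 0.08 (edgeR adjusted p = 0.283) in AET against SED.

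Markers of non-muscle cells also differed between the groups. The summed CPM of 6 Schwann cell markers ran 42.3 to 90.3 CPM in AET+MET, 99.4 to 162 CPM in AET and 55.5 to 62.4 CPM in SED. The AET sums lay above all others, and Sox10 and S100b, 2 of the 6, were called higher in AET against SED, with all 6 at an unadjusted p under 0.05. In AET+MET against AET edgeR called none, and all 6 were lower at an unadjusted p under 0.05. Both Hk1 and the Schwann sum were higher in every AET library than in all others. Within no group did the library with the highest Schwann sum have the highest Hk1, but 3 libraries a group are too few to read such ranks. AET+MET replicate 2 had the highest sum of its group (90.3 CPM) and the lowest Hk1 (5.60 CPM). AET replicate 1 had the lowest sum of its group (99.4 CPM) and the highest Hk1 (10.9 CPM). The 6 smooth muscle and pericyte markers summed to 488 to 585 CPM in AET+MET, 582 to 691 CPM in AET and 496 to 584 CPM in SED, so that AET overlapped AET+MET and SED. In AET against SED, 4 of these 6 had estimates above 0 and Acta2 was called higher, while at an unadjusted p under 0.05, 4 were higher and 1 was lower. The 6 endothelial markers summed to 167 to 201 CPM in AET+MET, 213 to 245 CPM in AET and 198 to 225 CPM in SED and went both ways: Kdr was called higher and Cldn5 lower in AET against SED, Cldn5 lower in AET+MET against SED, and Kdr lower in AET+MET against AET. None of these 18 markers was at 0 in any library. Their part in the Hk1 result was not tested. In whole muscle, fewer cells of a type and less RNA per cell cannot be told apart.

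At phosphofructokinase, the muscle isoform Pfkm, by far the most abundant per exon length, did not pass a test, while the platelet isoform Pfkp rose in AET against SED and the opposing enzyme Fbp2 fell. Pfkm had 2689, 2544 and 2758 CPM in the AET+MET libraries, 2385, 2539 and 2613 CPM in the AET libraries and 2653, 2496 and 2799 CPM in the SED libraries. The groups overlapped, with estimates of 0.01 in AET+MET against SED, -0.08 in AET against SED and 0.08 in AET+MET against AET. Pfkp had 7.28, 5.65 and 5.03 CPM in the AET+MET libraries, 7.83, 8.35 and 7.14 CPM in the AET libraries and 4.49, 5.11 and 5.81 CPM in the SED libraries. Every AET library exceeded every SED library, and AET+MET overlapped both. Pfkp rose in AET against SED by 0.60 ± 0.15 (edgeR adjusted p = 0.0239), and its estimate in AET+MET against AET was -0.39 ± 0.15 (edgeR adjusted p = 0.163). That call was lost without AET replicate 1 or 2 or SED replicate 1 or 2, with edgeR adjusted p up to 0.0845. Pfkl, the liver isoform, ran 5.06 to 6.28 CPM in AET+MET, 6.48 to 7.06 CPM in AET and 4.92 to 5.90 CPM in SED, with an estimate of 0.32 ± 0.13 (edgeR adjusted p = 0.123) in AET against SED. Schwann marker sums, given above, were also highest in the 3 AET libraries, and their part in the Pfkp result was not tested.

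Fbp2, the muscle fructose bisphosphatase that runs the phosphofructokinase step backwards, lies at GRCm38 chr13:62836877-62858422, minus strand. It had 34.0, 36.0 and 31.7 CPM in the AET+MET libraries, 22.7, 19.6 and 28.3 CPM in the AET libraries and 75.2, 86.3 and 43.8 CPM in the SED libraries. Every trained library lay below every SED library, and every AET library below every AET+MET library. Fbp2 fell in AET against SED to 0.344-fold, a log2 fold change of -1.54 ± 0.25 (edgeR adjusted p = 0.00996), a call lost without AET replicate 1 (edgeR adjusted p = 0.0546). Its AET+MET against SED estimate of -1.01 ± 0.25 (edgeR adjusted p = 0.0688) did not pass, and the same contrast passed without SED replicate 3 (edgeR adjusted p = 0.00412), the lowest SED library, in DESeq2 (adjusted p = 4.23e-05), with at least 5 CPM in 3 libraries and with no robust option, where adjusted p ran up to 0.146 over 8 such settings. The AET+MET against AET estimate was 0.53 ± 0.25 (edgeR adjusted p = 0.286), and it passed in a fit of those 6 libraries alone (edgeR adjusted p = 0.0463).

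Among the PFKFB enzymes, Pfkfb4 alone was called. It fell in AET muscle against SED and was higher in AET+MET than in AET. Pfkfb4 (GRCm38 chr9:108991778-109032228, plus strand) had 44.1, 43.9 and 49.1 CPM in the AET+MET libraries, 24.3, 30.1 and 29.3 CPM in the AET libraries and 47.2, 53.4 and 52.9 CPM in the SED libraries. All AET libraries lay below all others, and AET+MET and SED overlapped. The fall in AET against SED was to 0.546-fold, at -0.87 ± 0.09 (edgeR adjusted p = 0.000203) on the log2 scale, and the rise in AET+MET against AET was 1.64-fold, at 0.71 ± 0.09 (edgeR adjusted p = 0.00483). Both calls held without each of the 9 libraries in turn, with edgeR adjusted p up to 0.00172 and 0.0416, and under all 8 other settings. AET+MET against SED gave -0.16 ± 0.09 (edgeR adjusted p = 0.344).

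The other PFKFB paralogs are coded by separate genes and passed no test. Pfkfb1, the liver and muscle form, had 27.6, 31.6 and 21.7 CPM in the AET+MET libraries, 21.8, 28.0 and 30.2 CPM in the AET libraries and 31.0, 33.2 and 37.7 CPM in the SED libraries. Both trained groups averaged below SED, and AET lay wholly below it, at -0.35 ± 0.15 (edgeR adjusted p = 0.158). Pfkfb2, the heart form, had 9.497, 8.57 and 7.18 CPM in the AET+MET libraries, 7.68, 10.7 and 9.94 CPM in the AET libraries and 9.03, 5.86 and 7.77 CPM in the SED libraries. Its groups overlapped, at 0.33 ± 0.17 (edgeR adjusted p = 0.229) in AET against SED. Pfkfb3, the inducible form with high kinase activity, had 216, 115 and 196 CPM in the AET+MET libraries, 170.4, 155 and 168 CPM in the AET libraries and 228, 281 and 139 CPM in the SED libraries. It spread widely within SED and AET+MET, with SED replicate 3 and AET+MET replicate 2 low, and its estimate in AET against SED was -0.39 ± 0.31 (edgeR adjusted p = 0.453).

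Per exon length, Pfkfb3 led in every group and made up 56.4% ± 9.32 of the summed PFKFB level in AET+MET, 61.5% ± 4.23 in AET and 57.7% ± 10.04 in SED. Pfkfb4 made up 23.5% ± 3.67, 16.2% ± 1.48 and 22.1% ± 4.57 in the same groups, Pfkfb1 17.1%, 18.7% and 18.0%, and Pfkfb2 2.92%, 3.68% and 2.22%. The SD of the Pfkfb3 share in AET+MET and SED was larger than its differences between groups.

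**Figure D2:**
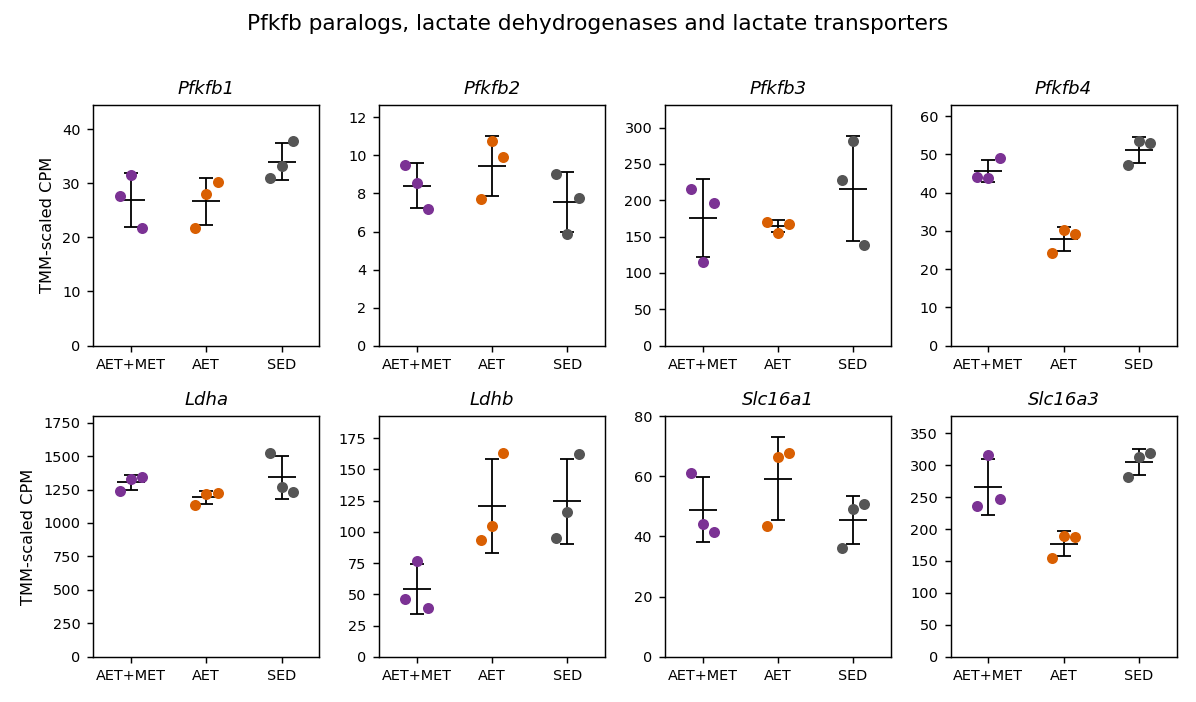
TMM-scaled CPM on a linear axis from 0 of the 4 PFKFB paralogs (top) and of the lactate dehydrogenases and lactate transporters (bottom), with a point per library in AET+MET, AET and SED, a line at the mean and bars of 1 SD (n = 3). The AET points of Pfkfb4 and Slc16a3 lie below all points of the other groups, and the AET+MET points of Ldhb lie below all others.

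From the trioses to pyruvate, the abundant muscle enzymes passed no test except Pgk1. Aldoa, which splits the hexose bisphosphate and had the highest level per exon length of all 39 genes at 4167, 3897 and 4209.5 CPM per kb in AET+MET, AET and SED, had 11704, 11732 and 12957 CPM in the AET+MET libraries, 10861, 11888 and 11286 CPM in the AET libraries and 12290.2, 12054 and 12418 CPM in the SED libraries. AET lay wholly below SED, at -0.11 ± 0.08 (edgeR adjusted p = 0.404). Tpi1, Gapdh, Pgam2, Eno3 and Pkm, the abundant enzymes of the following steps, had estimates from -0.29 to 0.07 in AET against SED, from -0.16 to 0.06 in AET+MET against SED and from -0.17 to 0.14 in AET+MET against AET, none called. Gapdh lay lower in all AET libraries than in all others, at 5101 to 5674 CPM in AET+MET, 4833 to 4947 CPM in AET and 5024 to 5314 CPM in SED. Aldoc, the brain aldolase, was not tested, with 2 to 14 counts in a library.

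Pgk1, the phosphoglycerate kinase that makes the first ATP of the pathway (GRCm38 chrX:106187100-106203699, plus strand), had 534, 556 and 508 CPM in the AET+MET libraries, 368, 498 and 493 CPM in the AET libraries and 719.8, 617 and 586 CPM in the SED libraries. SED lay wholly above the trained groups, and AET+MET wholly above AET. It fell in AET against SED, at -0.50 ± 0.12 (edgeR adjusted p = 0.0161), a call lost without SED replicate 1 (edgeR adjusted p = 0.0616). The estimates in AET+MET against SED and AET+MET against AET were -0.27 ± 0.12 (edgeR adjusted p = 0.219) and 0.23 ± 0.12 (edgeR adjusted p = 0.271).

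Eno1, the enolase of most other cell types (GRCm38 chr4:150236721-150248879, plus strand), was lower in AET+MET than in both other groups, while the muscle enolase Eno3 was not called. Eno1 had 30.7, 31.5 and 27.8 CPM in the AET+MET libraries, 44.4, 46.8 and 43.8 CPM in the AET libraries and 40.2, 39.2 and 40.9 CPM in the SED libraries. All AET+MET libraries lay below all others, and all AET libraries above all SED libraries. It fell at -0.42 ± 0.07 (edgeR adjusted p = 0.00850) in AET+MET against SED and at -0.59 ± 0.07 (edgeR adjusted p = 0.00364) in AET+MET against AET, and its AET against SED estimate was 0.17 ± 0.07 (edgeR adjusted p = 0.145). Both calls held without each of the 9 libraries in turn, with edgeR adjusted p up to 0.0492 and 0.0244. The AET+MET against SED call was lost with library sizes alone, at an edgeR adjusted p of 0.0522. Eno1 is a minor form here: per exon length it averaged 5.58, 8.37 and 7.45 CPM per kb in AET+MET, AET and SED, where Eno3 had 1612, 1473 and 1806 CPM per kb in AET+MET, AET and SED. Counts can be shared with a near-identical copy, Eno1b, which had 0 to 27.19 counts in the AET+MET libraries, 15.28 to 57.56 in AET and 28.69 to 41.57 in SED, where Eno1 had 497.84 to 679.63, 931.23 to 1200.23 and 837.34 to 890.31. Endothelial and Schwann marker sums in AET+MET, given above, were also below those of AET in every library, while both overlapped those of SED. The part of these markers in the Eno1 result was not tested. Pgam1, the mutase of other tissues, ran 9.54 to 10.2 CPM in AET+MET, 8.92 to 10.6 CPM in AET and 7.18 to 9.16 CPM in SED, with an AET+MET against SED estimate of 0.31 ± 0.12 (edgeR adjusted p = 0.165).

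At the lactate steps, the export transporter Slc16a3 fell in AET muscle and was higher in AET+MET than in AET. Slc16a3 (MCT4, GRCm38 chr11:120948480-120960868, plus strand) had 236, 316 and 247 CPM in the AET+MET libraries, 154, 189 and 188 CPM in the AET libraries and 282, 313 and 319 CPM in the SED libraries. All AET libraries lay below all others, and AET+MET overlapped SED. The fall in AET against SED was to 0.581-fold, at -0.78 ± 0.12 (edgeR adjusted p = 0.00151), and held without each library in turn (edgeR adjusted p up to 0.00984). The rise in AET+MET against AET was 1.505-fold, at 0.59 ± 0.12 (edgeR adjusted p = 0.0239), and was lost without AET+MET replicate 2 or 3 or AET replicate 1 or 3 (edgeR adjusted p up to 0.0880). AET+MET against SED gave -0.19 ± 0.12 (edgeR adjusted p = 0.378). Slc16a1 (MCT1) had 61.2, 44.0 and 41.4 CPM in the AET+MET libraries, 43.5, 66.4 and 67.9 CPM in the AET libraries and 36.3, 49.0 and 51.0 CPM in the SED libraries. Its groups overlapped, with 0.39 ± 0.23 (edgeR adjusted p = 0.306) in AET against SED. Of the summed CPM of both transporters, Slc16a1 took 15.7% ± 4.36 in AET+MET, 24.8% ± 2.48 in AET and 12.9% ± 1.30 in SED (exact permutation p = 0.1, adjusted p = 0.171, for each comparison with AET, the smallest p that 3 against 3 allows).

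Neither lactate dehydrogenase subunit passed the test, though AET+MET libraries stood apart in the heart subunit. Ldha, the fast-muscle subunit, had 1238, 1325 and 1345 CPM in the AET+MET libraries, 1136, 1216 and 1223 CPM in the AET libraries and 1525, 1269 and 1229.7 CPM in the SED libraries. Its AET libraries lay below all others, at -0.17 ± 0.09 (edgeR adjusted p = 0.252) against SED. A pseudogene of it, Ldha-ps2, which can share reads with it, had 157.77 to 294.49 counts in a library. Ldhb, the subunit of heart and slow fibers, had 46.3, 76.7 and 39.2 CPM in the AET+MET libraries, 93.7, 104 and 163 CPM in the AET libraries and 95.3, 116 and 162 CPM in the SED libraries. All AET+MET libraries lay below all others. The estimates were -1.20 ± 0.35 (edgeR adjusted p = 0.122) in AET+MET against SED, -0.04 ± 0.35 (edgeR adjusted p = 0.949) in AET against SED and -1.16 ± 0.35 (edgeR adjusted p = 0.127) in AET+MET against AET. DESeq2 called AET+MET lower in both of its comparisons (adjusted p = 0.0237 and 0.0343), and edgeR with no robust option in AET+MET against SED (adjusted p = 0.0395). Ldhb took 3.97% ± 1.36 of the summed CPM of both subunits in AET+MET, 9.10% ± 2.32 in AET and 8.62% ± 2.89 in SED (exact permutation p = 0.1, adjusted p = 0.171, for AET+MET against either group).

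Slow-fiber markers also differed between libraries. The 9 slow-fiber genes summed to 90.5, 726 and 284 CPM in the AET+MET libraries, 409.9, 341 and 1284 CPM in AET and 839, 1015 and 854 CPM in SED. The highest library of each trained group was also that group's highest for Ldhb, namely AET+MET replicate 2 and AET replicate 3. The lower libraries of both groups ranked in reverse. AET+MET replicate 1 had a lower sum but more Ldhb (46.3 CPM) than replicate 3 (39.2 CPM). AET replicate 1 had a higher sum but less Ldhb (93.7 CPM) than replicate 2 (104 CPM). In SED the highest were replicate 2 for the markers and replicate 3 for Ldhb. For 7 of the 9 every AET+MET library lay below every SED library, where this held for 13.4% of all tested genes. In AET+MET against SED, 0 of the 9 had an estimate above 0, where 50.5% of all tested genes did. The median log2 fold change of the 9 there was -1.24. The medians were -0.39 in AET against SED and -0.86 in AET+MET against AET. None of the 9 was called by edgeR in any comparison, 0 had an unadjusted p under 0.05, and none was at 0 in any library. The part of these markers in the Ldhb values was not tested, and 3 libraries a group are too few to read such ranks.

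In glycogen synthesis, Ugp2, which makes the UDP-glucose that glycogen is built from, was the only gene of 3 called. Ugp2 (GRCm38 chr11:21321138-21371201, minus strand) had 579, 501 and 578 CPM in the AET+MET libraries, 365, 412 and 465 CPM in the AET libraries and 535, 572 and 602 CPM in the SED libraries. AET stood wholly below the other groups, and AET+MET overlapped SED. It fell, at -0.46 ± 0.10 (edgeR adjusted p = 0.0116) in AET against SED, which held without each library in turn (edgeR adjusted p up to 0.0421). It rose by 0.42 ± 0.10 (edgeR adjusted p = 0.0420) in AET+MET against AET, which was lost without any AET+MET or AET library or SED replicate 2, with edgeR adjusted p up to 0.158. That call was also lost in a fit of the 6 libraries compared and with no robust option, at edgeR adjusted p up to 0.0540. Gys1, muscle glycogen synthase, ran 251 to 276 CPM in AET+MET, 281 to 341 CPM in AET and 281 to 370.3 CPM in SED, and Gbe1, the branching enzyme, 52.6 to 56.4 CPM in AET+MET, 47.6 to 59.0 CPM in AET and 48.6 to 68.9 CPM in SED. Their estimates in AET+MET against SED were -0.26 ± 0.11 (edgeR adjusted p = 0.193) and -0.13 ± 0.12 (edgeR adjusted p = 0.581).

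Among the 5 genes of glycogen breakdown, Pygm and Phka1 fell in AET against SED and edgeR called none in AET+MET against SED or AET. At an unadjusted p under 0.05 in edgeR, 4 of the 5 were below 0 in AET against SED and 0 stood out in AET+MET against SED. In AET+MET against AET, 4 were above 0 at that level, for which the share of all genes was not computed. Pygm, the muscle phosphorylase (GRCm38 chr19:6384399-6398459, plus strand), had 5232, 5268 and 5441 CPM in the AET+MET libraries, 4735, 4699 and 4463 CPM in the AET libraries and 6164, 5427 and 5586 CPM in the SED libraries. AET lay wholly below the other groups, and SED replicate 1 was the highest library. It fell, at -0.31 ± 0.08 (edgeR adjusted p = 0.0295) in AET against SED, a call lost without AET replicate 1, 2 or 3, SED replicate 1 or AET+MET replicate 2 (edgeR adjusted p up to 0.111). The call was also lost with upper-quartile scaling and in a fit of the 6 AET and SED libraries, at edgeR adjusted p up to 0.0768. Phka1, the muscle regulatory subunit of phosphorylase kinase (GRCm38 chrX:102513975-102644246, minus strand), had 1114, 1207 and 1236 CPM in the AET+MET libraries, 958, 916 and 855 CPM in the AET libraries and 1413, 1434 and 1036 CPM in the SED libraries. AET again lay wholly below the others, and SED replicate 3 was the lowest SED library. It fell, at -0.51 ± 0.12 (edgeR adjusted p = 0.0140) in AET against SED, lost without AET replicate 3 or SED replicate 1 or 2 (edgeR adjusted p up to 0.0641). The AET+MET against AET estimate was 0.38 ± 0.12 (edgeR adjusted p = 0.0809), and it passed without SED replicate 3 (edgeR adjusted p = 0.0340). It also passed under 4 of 8 other settings: library sizes alone, DESeq2, no filter and a fit of the 6 libraries compared, with adjusted p from 0.0233 to 0.102 over the 8.

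The other kinase subunits did not pass. Phkb, the beta subunit, ran 476 to 549 CPM in AET+MET, 419 to 456 CPM in AET and 498 to 556 CPM in SED, at -0.26 ± 0.08 (edgeR adjusted p = 0.0607) in AET against SED. Phkg1, the catalytic muscle subunit, ran 338 to 344 CPM in AET+MET, 273 to 311 CPM in AET and 313 to 384 CPM in SED, at -0.24 ± 0.09 (edgeR adjusted p = 0.0953) in AET against SED. For both, every AET library lay below every other library. Pygb, the brain phosphorylase, ran 5.57 to 8.20 CPM in AET+MET, 7.06 to 9.64 CPM in AET and 6.39 to 8.89 CPM in SED and was not called.

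The glycogen-targeting subunits of protein phosphatase held 2 of the genes that fell in AET against SED, Ppp1r3c with the largest fall of all 38. Ppp1r3c, known as PTG (GRCm38 chr19:36731731-36736653, minus strand), had 255, 616 and 406 CPM in the AET+MET libraries, 287, 284 and 216 CPM in the AET libraries and 735, 809 and 981 CPM in the SED libraries. All trained libraries lay below all SED libraries, and AET+MET replicate 2 stood highest among the trained. It fell to 0.312-fold in AET against SED, at -1.68 ± 0.31 (edgeR adjusted p = 0.0173), a call lost without AET replicate 1, 2 or 3 or SED replicate 2 or 3 (edgeR adjusted p up to 0.0679). The AET+MET against SED estimate was -0.98 ± 0.31 (edgeR adjusted p = 0.134), and it passed without AET+MET replicate 2 (edgeR adjusted p = 0.0185) and in DESeq2 (adjusted p = 0.0362). Ppp1r3d, another targeting subunit at a low level, had 3.21, 3.43 and 2.29 CPM in the AET+MET libraries, 2.43, 1.95 and 1.95 CPM in the AET libraries and 5.44, 3.96 and 3.57 CPM in the SED libraries. Trained libraries again lay wholly below SED. It fell to 0.487-fold in AET against SED, at -1.04 ± 0.21 (edgeR adjusted p = 0.00856), and held without each library in turn (edgeR adjusted p up to 0.0395).

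Ppp1r3a, the subunit of striated muscle, ran 955 to 1031 CPM in AET+MET, 836 to 868 CPM in AET and 955 to 1102 CPM in SED and did not pass, at -0.24 ± 0.08 (edgeR adjusted p = 0.0756) in AET against SED. Per exon length it averaged 142, 123 and 145 CPM per kb in AET+MET, AET and SED, where Ppp1r3c averaged 156, 96.3 and 309 CPM per kb in AET+MET, AET and SED. Ppp1r3b, the liver subunit, stayed between 0.352 and 1.10 CPM and was not called. Epm2a, the glycogen phosphatase laforin, had 94.7, 95.1 and 102 CPM in the AET+MET libraries, 86.5, 86.4 and 88.3 CPM in the AET libraries and 96.99, 84.9 and 96.8 CPM in the SED libraries. AET+MET lay wholly above AET, at 0.16 ± 0.07 (edgeR adjusted p = 0.234). Stbd1, which tethers glycogen to membranes, ran 18.1 to 19.9 CPM in AET+MET, 22.1 to 28.9 CPM in AET and 15.4 to 26.1 CPM in SED, at -0.41 ± 0.19 (edgeR adjusted p = 0.242) in AET+MET against AET.

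**Figure D3:**
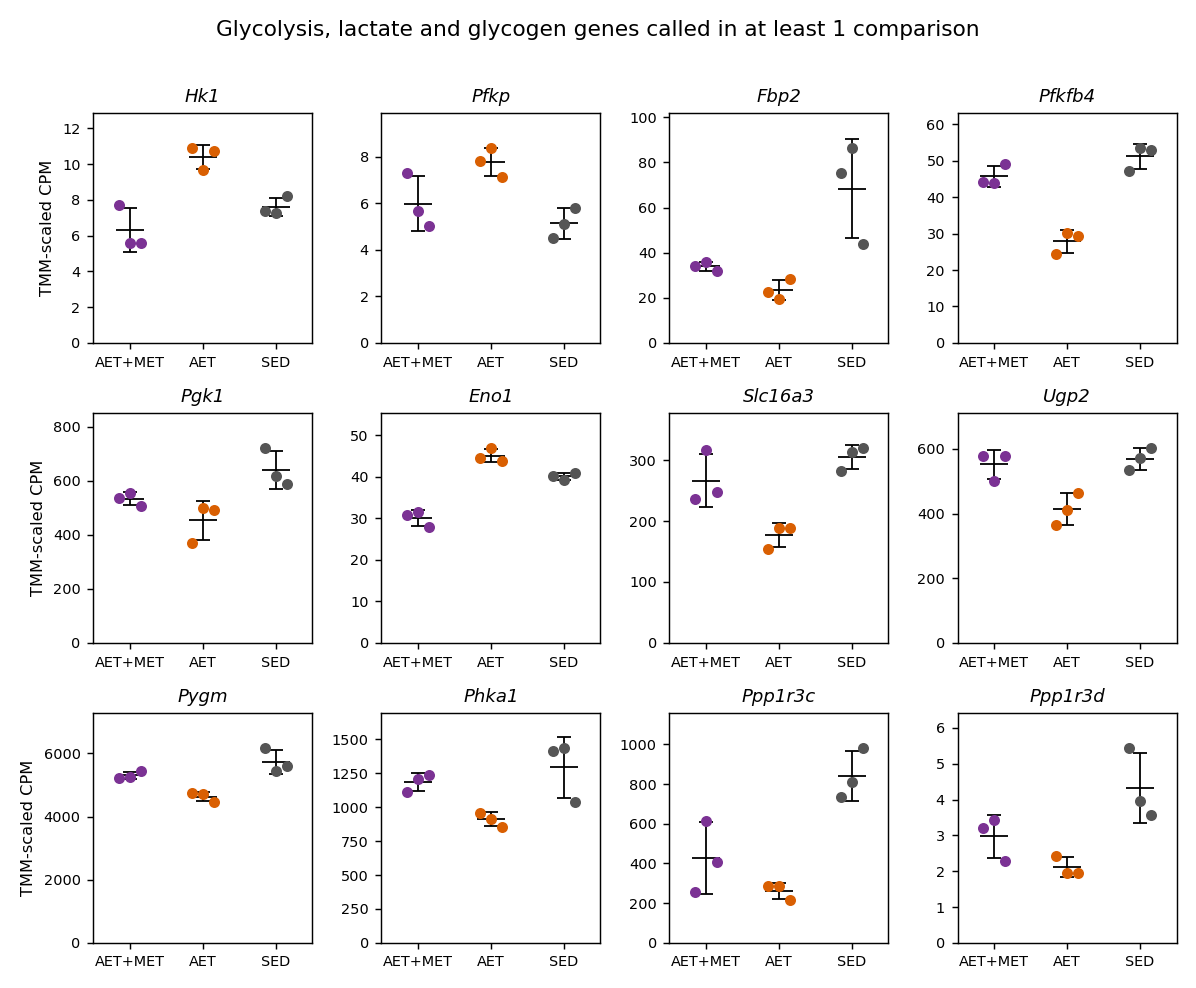
TMM-scaled CPM on a linear axis from 0 of the 12 genes called in at least 1 comparison, with a point per library in AET+MET, AET and SED, a line at the mean and bars of 1 SD (n = 3). AET points lie below all others for Fbp2, Pfkfb4, Pgk1, Slc16a3, Ugp2, Pygm and Phka1 and above all others for Hk1, and AET+MET points lie below all others for Eno1.

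Summed over all 39 genes, the transcripts took 39982 to 42360 CPM in AET+MET, 36238 to 38560 CPM in AET and 41513 to 44325 CPM in SED, so that AET lay wholly below both other groups. With upper-quartile scaling the order was kept. With library sizes alone AET ran 33926 to 40027 CPM and overlapped SED at 39970 to 42928 CPM. Aldoa alone held 10861 to 12957 CPM of it in a library.

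Beyond the 39, 46 further genes of the same pathways were looked up, of which 37 were tested. Those that fell in AET against SED included Slc2a4 (-0.46 ± 0.11, edgeR adjusted p = 0.0154), the insulin-responsive glucose transporter; Gpd1 (-0.32 ± 0.10, edgeR adjusted p = 0.0456), cytosolic glycerol phosphate dehydrogenase; and Gsk3a (-0.27 ± 0.07, edgeR adjusted p = 0.0284), a kinase that inhibits glycogen synthase. Calm2, a calmodulin gene whose product is also a subunit of phosphorylase kinase, rose by 1.19 ± 0.14 (edgeR adjusted p = 0.000566), with 124 ± 15.96 CPM in AET+MET, 137 ± 17.4 CPM in AET and 59.8 ± 10.1 CPM in SED. In AET+MET against SED, Calm2 rose by 1.05 ± 0.14 (edgeR adjusted p = 0.00371). In AET+MET against AET, 3 rose, namely Gpd2 (0.43 ± 0.09, edgeR adjusted p = 0.0236), mitochondrial glycerol phosphate dehydrogenase, Gyg (0.47 ± 0.09, edgeR adjusted p = 0.0187), glycogenin, the primer of glycogen, and Gsk3a (0.29 ± 0.07, edgeR adjusted p = 0.0446), while Pgm2 (-1.16 ± 0.23, edgeR adjusted p = 0.0234), a phosphopentomutase, fell. The median log2 fold changes of the 37 were -0.03, -0.13 and 0.10 in AET+MET against SED, AET against SED and AET+MET against AET.

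Of 11 known regulators of these pathways, Hif1a, the hypoxia-inducible factor, fell in AET against SED, at -0.27 ± 0.07 (edgeR adjusted p = 0.0254), with 25.9 ± 0.886 CPM in AET+MET, 24.8 ± 0.229 CPM in AET and 29.98 ± 1.00 CPM in SED. Myc fell in both trained groups against SED, at -0.70 ± 0.18 (edgeR adjusted p = 0.0449) in AET+MET and -0.84 ± 0.18 (edgeR adjusted p = 0.0104) in AET, with 2.20 ± 0.354 CPM in AET+MET, 2.00 ± 0.1005 CPM in AET and 3.58 ± 0.333 CPM in SED. In AET+MET against AET, edgeR called none of the 11, and 0 had an unadjusted p under 0.05.

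Fiber type, with which the level of many glycolytic enzymes is known to go, was described by its markers. The 10 fast-fiber genes summed to 123370.3 to 138833 CPM in AET+MET, 124478 to 143961 CPM in AET and 124189.9 to 142396 CPM in SED, overlapping in all groups. None was called by edgeR in any comparison, and at an unadjusted p under 0.05 at most 3 of the 10 stood out, in AET+MET against AET. Fibroblast and tendon markers summed to 597 to 752 CPM in AET+MET, 697 to 871 CPM in AET and 1017 to 1369.6 CPM in SED, with both trained groups below every SED library and 2 of the 7 called lower in each of them against SED. Macrophage markers summed to 58.0 to 73.5 CPM in AET+MET, 63.3 to 100.4 CPM in AET and 62.0 to 78.9 CPM in SED, and red cell markers to 143 to 210.0 CPM in AET+MET, 193 to 221 CPM in AET and 193 to 365 CPM in SED, each overlapping between all groups. Adipocyte markers summed to 129.6 to 241 CPM in AET+MET, 168 to 200.03 CPM in AET and 134 to 165 CPM in SED, with AET above SED and the adipokine Lep at 0 in SED replicate 2. How far any of these bears on the genes that fell in AET against SED was not tested.

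**Figure D4:**
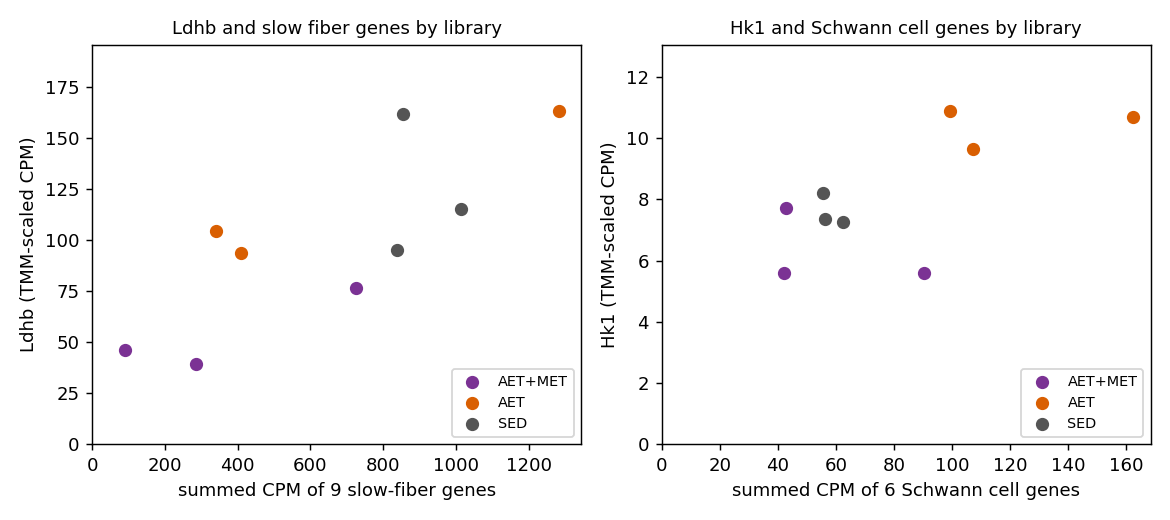
Left, Ldhb against the summed level of 9 slow-fiber genes, and right, Hk1 against the summed level of 6 Schwann cell genes, both as TMM-scaled CPM on linear axes, with a point per library. The AET+MET points have the lowest Ldhb, at 39.2 to 76.7 CPM, and the AET points lie at the top right of the Hk1 panel, with Schwann sums of 99.4 to 162 CPM. Within each group, the point with the highest Hk1 is not the one with the highest Schwann sum.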

How the data were processed

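RNA from gastrocnemius was extracted with RNeasy columns and made into libraries with a SMARTER mRNA-Seq kit, per the labels' protocols. The deposited values are expected counts per gene, which the authors' processing estimated with fractions of reads allowed. Per the submitters' processing notes, which give no roles, STAR 2.5.3a, RSEM 1.3.0, edgeR 3.34.0 and build GRCm38 were used. Annotation release, strand setting and prior filters were not given in the sources used here. Reads shared by close paralogs or pseudogenes are split by estimation, so their values are uncertain.

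Expected counts were rounded. Symbols came from GENCODE M21 on GRCm38, which named 52083 of 55416 identifiers. All 9 libraries entered 1 fit in edgeR 4.0.16 (R 4.3.3): TMM scaling, filterByExpr, and the robust quasi-likelihood test with 6 residual degrees of freedom, with Benjamini-Hochberg adjustment over 13944 genes. The SE of a log2 fold change is its size divided by the root of the F statistic. Shares were tested by exact 2-sided permutation. The procedure was tested on simulated data. Libraries of 1 group differed by more than sampling noise (14.7 to 44.4 as chi-square per degree of freedom), and all were kept as separate. At these totals, counting error is small for all but the lowest genes.

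The 39 genes, the other pathway genes and the marker lists were chosen with earlier results of these data known. Values per library are given for genes called in any comparison, the PFKFB paralogs, the lactate genes and the gene with the highest level per kb in each step; the rest have ranges. Alternatives were DESeq2 1.42.0, upper-quartile scaling, library sizes alone, no filter, at least 5 CPM in 3 libraries, a replicate block, a fit of the 6 libraries compared, no robust option, CPM per kb for shares, and each library left out. The values of 1 other pathway gene are not reported here.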

Additional observations from a re-analysis of the deposited data

How the results depend on the processing

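AET against SED called 1712 genes, and 934 to 1509 with each library left out, lowest without AET replicate 1. In those fits 0 to 2 of the 38 genes rose and 6 to 9 fell, where 412 to 722 and 516 to 792 of 14216 to 14442 genes did. DESeq2 called 2 of the 38 higher and 12 lower, where it called 771 and 923 of 13944 genes. AET+MET against SED called 640 genes, and 141 to 655 with a library left out. The number of the 38 that fell there was 1, and 0 with library sizes alone, 2 at 5 CPM, 3 with no robust option, 4 in DESeq2 and 1 to 2 with a library left out. Over all genes tested, the number that fell was 337, and 176, 356 (of 8682), 344, 551 and 88 to 393 in the same order. AET+MET against AET called 478 genes, 767 with library sizes alone, 876 in DESeq2, 731 with no filter, and 23 (without AET+MET replicate 3) to 461 with a library left out, where fits without AET replicate 3 or 1 or AET+MET replicate 1 or 2 gave 34, 104, 85 and 151. With a library left out, 1 to 4 of the 38 rose and 1 to 2 fell, where 11 to 219 and 12 to 242 of all genes tested did. With library sizes alone 6 of the 38 rose. DESeq2 called 4 of the 38 higher and 3 lower, where it called 433 and 443 of 13944 genes. Library sizes alone moved the median of all genes to 0.10 in AET+MET against SED and 0.09 in AET+MET against AET, and its calls there were 684 higher and 176 lower, and 611 higher and 156 lower, where TMM gave 303 and 337, and 231 and 247. The median of the 38 was then -0.00 and 0.18. Upper-quartile scaling gave 980 higher and 711 lower in AET against SED, where TMM gave 812 and 900. Per kb, the Ldhb share was 7.99%, 17.4% and 16.5% in AET+MET, AET and SED, the Hk1 share 1.19%, 1.67% and 1.49%, the Pygb share 0.0866%, 0.117% and 0.0921%, and the Slc16a1 share 28.4% in AET and 15.1% in SED. Of 1119 values of single genes under other settings, 45 lost a call, 15 gained one and 0 called values changed sign; the cause of these shifts was not tested. No strong pairing of libraries by replicate number was seen. Deviations of same-numbered libraries correlated at -0.05 to 0.18, and 4 of 9 libraries correlated best with their own number. With 3 libraries a group, these values cannot exclude a weaker pairing. With the replicate block, 535, 1530 and 358 genes were called in AET+MET against SED, AET against SED and AET+MET against AET, and the calls among the 38 numbered the same. With 3 libraries a group, changes that are small beside the spread cannot be detected.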
